A study of Mus musculus with 39 samples.

Results

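Transcription elongation was blocked with DRB in MFL 30 h erythroblasts, and the chromatin interactions of the globin genes were compared with those of vehicle-treated and untreated cells by NG Capture-C. The comparison comprised the 3 libraries labelled untreated, DMSO and DRB, out of 39 samples in the series, with 1 library per condition and 8 viewpoints in each. The cells of all 3 libraries were wild-type C57Bl6 mouse foetal liver cells, expanded in culture, depleted of Ter119+ cells, sorted on CD44 and cell size, and differentiated for 30 h into erythroblasts that transcribe their globin genes, with BrdU present in the last hours of culture. One culture received no addition, one received the solvent DMSO alone for 3 h, and one received 100 μM DRB dissolved in DMSO for 3 h. The study derived each of these libraries from 1 sample and made them with a low-input version of the protocol because material was scarce, so no test between conditions exists. DRB was set against its vehicle, and DMSO against untreated cells, to show how far apart a pair of libraries without DRB lay. The 2 comparisons share the DMSO library. RNA was not analysed here, so the cell type and the degree of the transcriptional block were not checked against markers.

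DRB (5,6-dichlorobenzimidazole 1-β-D-ribofuranoside) inhibits the kinase that releases paused RNA polymerase II into productive elongation, so that initiated polymerases stay near promoters while gene bodies empty. In erythroblasts, the α-globin genes lie with their enhancers in a self-interacting domain, an interval whose fragments contact each other more often than they contact the chromatin around it, and CTCF sites flank it. The enhancers MCS-R1 and MCS-R2 lie in introns of Nprl3, the neighbouring gene, and contact the adult promoters Hba1/2. The adult β-globin genes are likewise contacted by a distant locus control region made of several DNase hypersensitive sites. In NG Capture-C, crosslinked chromatin is cut with DpnII at GATC and religated, and ligation products of chosen viewpoint fragments are enriched with oligonucleotides, so that the number of reads joining a viewpoint to another fragment reports how often they were in contact. The question of the experiment was whether ongoing elongation maintains the domain and its interactions.

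No relation of sequence to contact was tested, and the enhancer sequences are shown because the single-fragment results include these sites. Each is given 5′ to 3′ on the plus strand of mm9, and capitals mark 3 motifs on either strand, namely GATAA or its reverse TTATC (the core bound by GATA factors), CACCC or GGGTG (bound by KLF factors) and TGAGTCA or TGACTCA (bound by NF-E2 and AP-1 factors). No marked matches overlap. The stretch of MCS-R1 is chr11:32145773-32146072 and that of MCS-R2 is chr11:32151322-32151621, both in introns of Nprl3. HS2 of the β-globin locus control region is shown at chr7:111009550-111009749, in the intergenic stretch between Hbb-y and Olfr66.
MCS-R1: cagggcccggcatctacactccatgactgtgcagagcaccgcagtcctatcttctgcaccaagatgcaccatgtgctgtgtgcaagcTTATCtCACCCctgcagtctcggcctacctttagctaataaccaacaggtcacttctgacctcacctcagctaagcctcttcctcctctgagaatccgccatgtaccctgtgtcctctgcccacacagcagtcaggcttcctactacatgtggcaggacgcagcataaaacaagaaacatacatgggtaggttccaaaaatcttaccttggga
MCS-R2: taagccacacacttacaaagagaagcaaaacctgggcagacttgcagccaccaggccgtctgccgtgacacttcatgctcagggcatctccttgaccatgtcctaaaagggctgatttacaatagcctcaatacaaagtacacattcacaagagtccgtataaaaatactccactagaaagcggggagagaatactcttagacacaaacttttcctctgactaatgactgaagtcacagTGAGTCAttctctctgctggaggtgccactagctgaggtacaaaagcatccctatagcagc
HS2: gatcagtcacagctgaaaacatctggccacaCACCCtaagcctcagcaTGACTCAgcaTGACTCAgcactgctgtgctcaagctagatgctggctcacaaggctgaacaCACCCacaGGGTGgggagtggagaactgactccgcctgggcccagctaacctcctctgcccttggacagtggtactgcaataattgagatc
The MCS-R1 stretch held 1 GATAA and 1 CACCC match, and the MCS-R2 stretch held 1 TGAGTCA match. Both stretches are only the central 300 bp of their fragments. The whole MCS-R1 fragment of 1292 bp held 4 GATAA, 2 CACCC and 0 TGAGTCA matches. The whole MCS-R2 fragment of 824 bp held 1 GATAA, 2 CACCC and 2 TGAGTCA matches. The shorter HS2 fragment held 3 CACCC and 2 TGAGTCA matches. Such matches are common for the short motifs, since 37.9% of all 300 bp windows of chromosome 11 held a GATAA match and 43.3% a CACCC match, while 4.97% held a TGAGTCA match. On chromosome 7, the shares of 200 bp windows were 29.0%, 30.3% and 3.14%.

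Depth differed between the libraries. Summed over the 8 viewpoints, the untreated library held 76331 reporter reads, the DMSO library 56286 and the DRB library 119398, and the reads per viewpoint ran from 5854 to 16884, from 3881 to 13288 and from 7733 to 29553. The DRB library was thus the deepest and the DMSO library the shallowest, by a factor of 1.57 to 2.27 at each viewpoint. A fragment at 0 reads could still hold up to 30.1 to 85.9 (untreated), 38.2 to 124 (DMSO) or 16.1 to 61.8 (DRB) per 100000 cis interactions, the worth of 3 reads at the deepest and the shallowest viewpoint. Values below are shares of the interactions on the viewpoint's own chromosome (cis interactions), or reads per 100000 of them, with fragments within 1 kb of any viewpoint left out. Hba1/2 and Hbb1/2 are means of both viewpoints of the pair. All intervals are 95% counting intervals, which treat reads as independent molecules although PCR copies are not, and which hold none of the variation between cultures.

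The interval of the α-globin domain held more interactions of Hba1/2 per kb than its flanks in all 3 libraries. Hba1/2 spent a slightly smaller share of its interactions inside the domain with DRB. The 63.7 kb covered by the COMP BAC, which the study designed to span the domain, served as its extent, and the 159 DpnII fragments there run from within Nprl3 to the end of the α-globin cluster (chr11:32137128-32200467). Hba1/2 made 45.2% of its cis interactions there in untreated cells (4382 of 9674 reads), 47.1% with DMSO (2985 of 6329 reads) and 43.2% with DRB (6275 of 14503 reads). DMSO was the highest and DRB the lowest of the 3 libraries, an order that is the reverse of their order in depth. Relative to DMSO the share with DRB was lower by a log2 ratio of −0.13 (interval −0.17 to −0.08), a difference of −3.92 percentage points, whereas DMSO lay 0.06 (0.01 to 0.11) above untreated. The DRB to DMSO ratio was −0.0732 (−0.13 to −0.02) when scaled to all reads and −0.0738 (−0.11 to −0.04) when scaled to the interactions within 500 kb. Both promoters gave a similar picture. From Hba-1 alone the shares were 45.9%, 47.9% and 44.01% in untreated, DMSO and DRB cells, and from Hba-2 alone they were 44.5%, 46.3% and 42.3%. The part that depth plays in this order was not tested. Both viewpoints lie inside this interval, so it and its flanks differ in distance from them. The part that distance plays in the share inside, and in its excess over the flanks, was not tested either.

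The chromatin on either side did not show a loss of the same size. In the upstream flank, an interval of equal length, Hba1/2 made 8.60% of its cis interactions in untreated cells, 8.05% with DMSO and 8.45% with DRB. In the downstream flank the shares were 6.49%, 6.86% and 7.03%. The intervals of all these flank differences included no change. The interactions per kb of the domain therefore exceeded those of its flanks by log2 2.58 in untreated, 2.66 in DMSO and 2.48 in DRB cells, and this contrast was lower with DRB than with DMSO by a log2 difference of −0.18 (−0.31 to −0.05). Between DMSO and untreated it differed by 0.08 (−0.06 to 0.21), and between DRB and untreated by −0.10 (−0.21 to 0.01), so that only the comparison with DMSO had an interval clear of 0 among these 3. The profile of Hba1/2 kept the same outline in 2 kb bins, with the highest bins between MCS-R2 and Hba-2 and a steep drop at both ends.

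**Figure D1:**
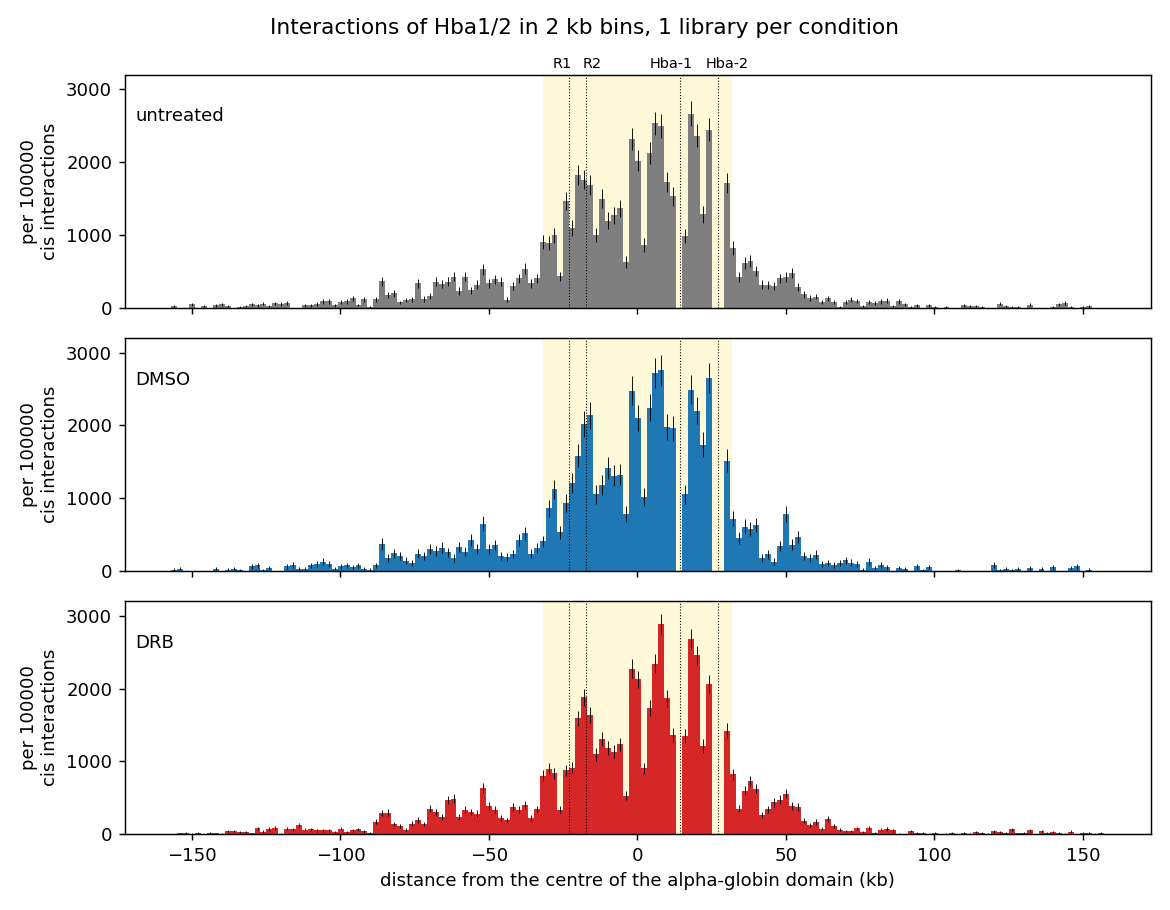
Interactions of Hba1/2 per 100000 cis interactions (y axis) in 2 kb bins against distance in kb from the centre of the α-globin domain (x axis), for untreated, DMSO and DRB cells, 1 library each, where the black bars show the counting standard error, the shading the domain and the dotted lines MCS-R1, MCS-R2, Hba-1 and Hba-2. The domain, which holds 45.2%, 47.1% and 43.2% of the cis interactions, stands above both flanks in every library, and the gaps around Hba-1 and Hba-2 are fragments left out near the viewpoints.

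When the domain was divided at MCS-R2 and at Hba-x, each part had a lower share with DRB than with DMSO. Of these parts only that between MCS-R2 and Hba-x had an interval clear of 0. The stretch from the upstream end to the end of MCS-R2 held 9.01% of cis interactions in untreated cells, 8.56% with DMSO and 7.86% with DRB. Its DRB to DMSO log2 ratio was −0.12 (−0.27 to 0.02). Between MCS-R2 and Hba-x the shares were 18.9%, 20.3% and 18.0%, which made DRB lower than DMSO by log2 −0.17 (−0.26 to −0.08) and DMSO higher than untreated by 0.10 (0.01 to 0.20). From Hba-x to the end, where the adult genes lie, the shares were 17.4%, 18.3% and 17.3%, with a DRB to DMSO log2 ratio of −0.08 (−0.17 to 0.01). Of the 28 bins of 2 kb lying in the domain, 19 were lower and 9 higher with DRB than with DMSO, over a log2 range of −0.64 to 0.37. In the DMSO to untreated comparison 8 were lower and 20 higher. Intervals were clear of 0 for 7 lower and 0 higher bins between DRB and DMSO. Between DMSO and untreated they were clear for 1 lower and 3 higher bins. None of the 28 bins reached a 2-fold difference in either comparison.

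The enhancer MCS-R2 was contacted less often from Hba1/2 with DRB than with DMSO, and this was among the larger of the differences at fixed sites, although it rests on few reads. The MCS-R2 fragment (chr11:32151060-32151883) received 540 interactions per 100000 in untreated cells (53 reads), 686 with DMSO (44 reads) and 398 with DRB (58 reads). DRB was the lowest and DMSO the highest library. The log2 ratio was −0.79 (−1.35 to −0.22) for DRB over DMSO, 0.35 (−0.23 to 0.92) for DMSO over untreated and −0.44 (−0.98 to 0.10) for DRB over untreated. The 2 kb bin that holds this fragment (chr11:32150000-32151999) had 1758, 2022 and 1883 per 100000, from 171, 128 and 271 reads. Its DRB to DMSO log2 ratio was −0.10 (−0.41 to 0.20), so the bin as a whole did not share the loss of the fragment. MCS-R1 (chr11:32145277-32146568) stood at 620 per 100000 in untreated cells (60 reads), 458 with DMSO (29 reads) and 348 with DRB (51 reads). Here the untreated library was the highest, and the step from DMSO to DRB, log2 −0.40 (−1.06 to 0.26), was about as large as the step from untreated to DMSO, −0.44 (−1.08 to 0.21). Only DRB against untreated had an interval clear of 0, at −0.84 (−1.38 to −0.29).

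CTCF, the protein that marks many domain boundaries, binds on both sides of the α-globin domain, and these sites were contacted by few reads. At the upstream site HS39.5 (chr11:32137176-32137426, in an exon of Nprl3) Hba1/2 had 15 reads in untreated cells, 2 with DMSO and 19 with DRB, or 153, 28.5 and 134 per 100000. The DMSO library stood apart here, with a log2 ratio of 2.23 (0.13 to 4.34) for DRB over DMSO and of −2.43 (−4.56 to −0.30) for DMSO over untreated, while DRB and untreated differed by −0.19 (−1.18 to 0.79). CTCF +44 (chr11:32220918-32221720) had 15, 13 and 22 reads, or 156, 206 and 152 per 100000. At CTCF +48 (chr11:32224323-32227298) the values were 64.9, 78.2 and 78.0 per 100000, from 6, 5 and 11 reads. No difference at the downstream pair was detectable at this depth.

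The windows of the FISH probes, which the study placed inside, at the edges of and outside the domain, were read in the same way. Window E, which covers MCS-R2, held 6.16% of the cis interactions of Hba1/2 in untreated cells, 6.71% with DMSO and 5.81% with DRB, a DRB to DMSO log2 ratio of −0.21 (−0.37 to −0.04). Window Ex, just outside the upstream end, held 1.72%, 1.31% and 1.39%, and here it was untreated that stood apart, with DMSO lower by −0.40 (−0.78 to −0.01). Window A, just outside the downstream end, held 2.05%, 2.17% and 2.17%. The control windows C and Cx, on the downstream side, held 0.218%, 0.114% and 0.154%, and 0.0721%, 0.0143% and 0.0543%, with 7, 1 and 8 reads in Cx. Contact with the control windows was thus rare in all 3 libraries.

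**Figure D2:**
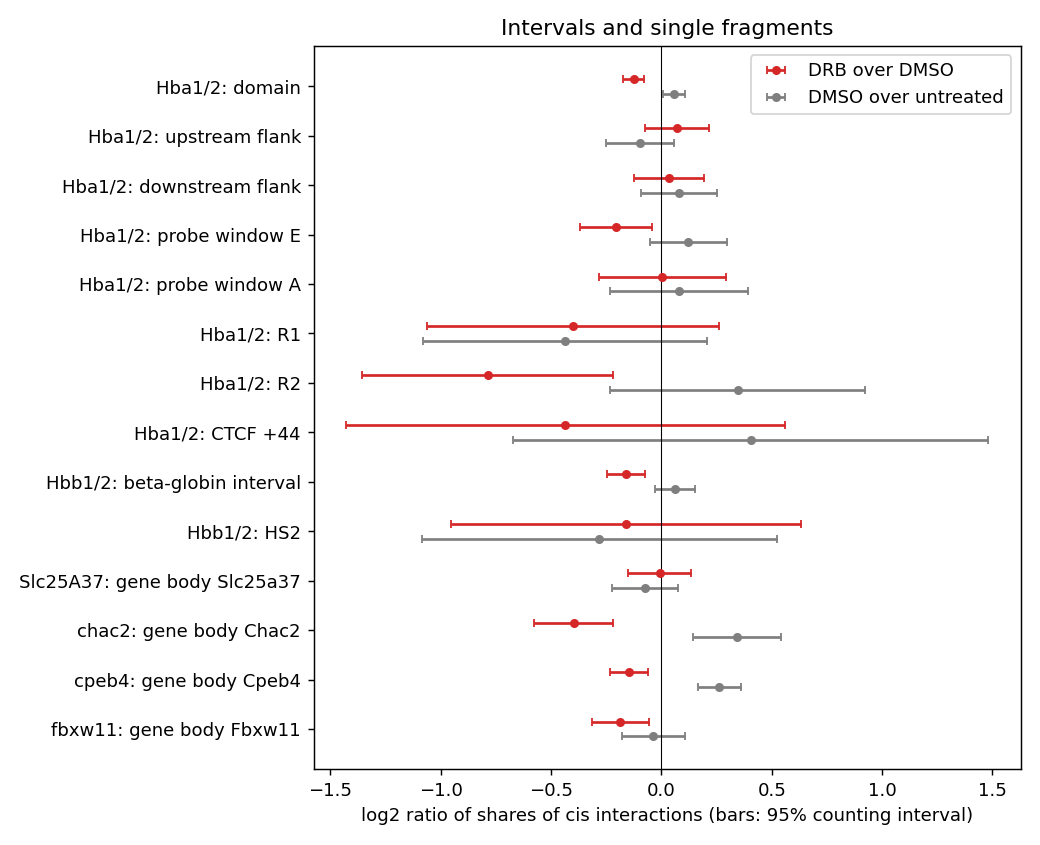
Log2 ratio of shares of cis interactions (x axis) for named intervals, gene bodies and single fragments (y axis, each under its viewpoint), DRB over DMSO in red and DMSO over untreated in grey, with 95% counting intervals as bars. DRB lies below DMSO in the domain (−0.13), at MCS-R2 (−0.79) and in the beta-globin interval (−0.16), and the single fragments have much wider intervals than the long ones.

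Among the genes around Hba1/2, Nprl3 took most of the contacts and was the only one of those from Snrnp25 to Sh3pxd2b with reads left after the viewpoint filter whose DRB to DMSO interval excluded no change. Nprl3, which encodes a component of the GATOR1 complex that restrains mTORC1, held 21.8% of the cis interactions in untreated cells, 21.5% with DMSO and 19.8% with DRB. Its log2 ratio was −0.12 (−0.21 to −0.04) for DRB over DMSO and −0.02 (−0.10 to 0.07) for DMSO over untreated. Mpg, a DNA glycosylase gene that overlaps Nprl3, held 1.15%, 1.13% and 0.993%. Rhbdf1, which encodes an inactive rhomboid protein, held 2.22%, 2.35% and 2.35%.

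The embryonic and minor α-like genes inside the domain did not differ beyond counting error between DRB and DMSO. Hba-x, the embryonic zeta-globin gene, held 2.11% in untreated cells, 2.26% with DMSO and 2.43% with DRB, a log2 ratio of 0.10 (−0.18 to 0.38) for DRB over DMSO. Per kb it was among the genes most contacted, with 1231, 1319 and 1414 interactions per 100000 and kb. Hbq1b, a theta-globin gene between the adult genes, held 1.02%, 1.06% and 1.14%, or 1241, 1287 and 1394 per kb. Hbq1a, the second theta-globin gene at the downstream end, held 0.540%, 0.419% and 0.449%. The adult genes Hba-a1 and Hba-a2 have near-identical sequences that could share reads, and their bodies lay wholly in the fragments left out. Beyond the domain, Snrnp25, which encodes a protein of the minor spliceosome, held 0.667%, 0.533% and 0.734%, and Sh3pxd2b, which encodes an adaptor of podosomes, held 0.850%, 0.856% and 0.898%.

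At the scale of 2 kb bins most differences between the libraries were of few reads. Of 216 bins contacted from Hba1/2 at a mean of 30 or more per 100000, 77 differed at least 2-fold between DRB and DMSO, or 35.6%, with 23 higher and 54 lower with DRB. Between DMSO and untreated 75 of 214 did, or 35%, with 45 higher and 30 lower with DMSO, so the number of differing bins was about as large without DRB. The counting interval excluded no change for 2 of the higher and 7 of the lower bins with DRB. Of the 216 bins, 24 held 0 reads in one library of the pair. The bins named here were chosen for their difference, and their values are a description. In Snrnp25 a bin at chr11:32106000-32107999 had 426 per 100000 in untreated cells, 174 with DMSO and 490 with DRB (42, 11 and 72 reads). Between Hbq1a and Sh3pxd2b the bin chr11:32214000-32215999 had 300, 128 and 437 per 100000, from 29, 8 and 62 reads. In both, the DMSO library was the lowest. That DRB was the highest follows from the choice, which kept only bins where DRB lay on the same side of untreated as of DMSO. The lower bins were chr11:32238000-32239999, with 7, 9 and 6 reads, and chr11:31712000-31713999 in an intron of D630024D03Rik, with 8, 8 and 3 reads.

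The ranking of fragments was similar in each pair of libraries. Of the 50 fragments with most reads from Hba1/2, DRB and DMSO shared 40, DMSO and untreated 38, and DRB and untreated 38. Over the 160 bins within 500 kb, Spearman's rho was 0.846 for DRB and DMSO, 0.843 for DMSO and untreated and 0.849 for DRB and untreated, a description across bins that share their library and depth. The chi-square per degree of freedom over these bins was 1.55, 1.48 and 1.51, where 1 stands for sampling noise alone. The 3 pairs of libraries gave close values by each of these measures. The fragment with the most reads in all, over 5 kb from either viewpoint, covered the start of Hba-x (chr11:32176203-32176928), with 645, 522 and 628 per 100000 in untreated, DMSO and DRB cells. The next was intergenic, between Nprl3 and Hba-x (chr11:32168682-32169411), with 674, 523 and 571 per 100000. The third lay at the end of Hba-x (chr11:32177758-32178042), with 539, 594 and 594 per 100000. Between DRB and DMSO the counting intervals of all 3 included no change.

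The β-globin locus on chromosome 7 showed a difference of the same direction when scaled to cis interactions. The viewpoints carry the label names Hbb-b1 and Hbb-b2, although in GENCODE vM1 the first lies in the gene called Hbb-b2 and the second in the one called Hbb-b1, a pair whose similar sequences could share reads. Over the 47.8 kb interval chr7:110961967-111009749, from the first viewpoint to the end of HS2, Hbb1/2 made 23.7% of its cis interactions in untreated cells (1702 reads), 24.8% with DMSO (1333 reads) and 22.2% with DRB (2258 reads). DMSO was again the highest and DRB the lowest library. The log2 ratio was −0.16 (−0.24 to −0.07) for DRB over DMSO and 0.06 (−0.03 to 0.15) for DMSO over untreated. Of the viewpoints alone, Hbb-b1 gave 21.2%, 21.9% and 20.4%, with a ratio of −0.10 (−0.23 to 0.02), and Hbb-b2 gave 26.2%, 27.6% and 23.9%, with −0.21 (−0.32 to −0.09). Scaled to the interactions within 500 kb, the DRB to DMSO ratio of Hbb1/2 was −0.0331 (−0.11 to 0.04), an interval that includes no change, whereas a wider margin of 5 kb at each viewpoint gave −0.29 (−0.40 to −0.17).

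The flanks of the β-globin interval differed between the libraries in different ways. The right flank begins at the end of HS2, so it takes in the rest of the locus control region as well as the olfactory receptor genes beyond. It held 14.8% in untreated cells, 15.1% with DMSO and 13.5% with DRB, a ratio of −0.16 (−0.28 to −0.04). The left flank held 7.29%, 9.15% and 8.43%. There DRB over DMSO was −0.12 (−0.27 to 0.03), DMSO over untreated 0.33 (0.16 to 0.50) and DRB over untreated 0.21 (0.06 to 0.36). The interval exceeded these flanks by log2 1.10, 1.03 and 1.02 in untreated, DMSO and DRB cells, and this contrast differed between DRB and DMSO by −0.02 (−0.15 to 0.12). Whether the α-globin and β-globin contrasts differ from each other was not tested.

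The locus control region was the strongest distal partner of Hbb1/2 in every library. The fragment chr7:111008142-111009073, to the left of HS2, ranked first among fragments over 5 kb away in all 3 libraries, with 738 per 100000 in untreated cells, 735 with DMSO and 516 with DRB (53, 39 and 53 reads). Its log2 ratio was −0.51 (−1.11 to 0.09) for DRB over DMSO and −0.01 (−0.60 to 0.59) for DMSO over untreated. HS2 (chr7:111009550-111009749) had 462, 380 and 340 per 100000, with −0.16 (−0.95 to 0.63) for DRB over DMSO. The neighbouring fragment chr7:111010488-111011766 had 643, 690 and 510 per 100000. All 3 fragments were lowest with DRB, and each counting interval against DMSO included no change. Adjacent fragments of one library share its viewpoints and depth.

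The embryonic β-like genes lie between the adult genes and the locus control region. Hbb-y, the embryonic epsilon-type gene, held 0.989% of the cis interactions of Hbb1/2 in untreated cells, 0.768% with DMSO and 0.681% with DRB, and DRB lay below untreated by −0.54 (−1.01 to −0.06). Hbb-bh1, the other main embryonic gene, held 0.642%, 0.458% and 0.650%. Hbb-bh2 held 0.322%, 0.251% and 0.206%, from 23, 14 and 21 reads. For none of these 3 genes did the DRB to DMSO interval exclude no change. Over bins, 84 of 226 from Hbb1/2 differed at least 2-fold between DRB and DMSO (37.2%) and 80 of 238 between DMSO and untreated (33.6%), a similar share. The top 50 fragments shared 40 between DRB and DMSO, 37 between DMSO and untreated and 40 between DRB and untreated.

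DRB empties gene bodies of elongating polymerase, so the promoter viewpoints of 4 other genes were examined for contact with their own body against an upstream interval of the same length. Cpeb4, which encodes a regulator of translation with a role in terminal erythroid differentiation, has its viewpoint just upstream of the annotated start, which lies 0.754 kb beyond the end of the viewpoint fragment. From cpeb4, the 63.4 kb gene body held 14.1% of cis interactions in untreated cells, 16.9% with DMSO and 15.3% with DRB. DMSO was the highest, and DRB lay between both other libraries. The body to upstream contrast was log2 −0.84, −0.51 and −0.67, so it differed by −0.15 (−0.28 to −0.03) between DRB and DMSO and by 0.33 (0.19 to 0.47) between DMSO and untreated, the larger step. The upstream interval itself held 25.2%, 24.1% and 24.2%.

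Chac2, which encodes a glutathione-degrading enzyme and lies within the gene Asb3, gave 4.04% in its 9.64 kb body in untreated cells, 5.13% with DMSO and 3.89% with DRB. Untreated and DRB were alike and DMSO was above both. The ratio was −0.40 (−0.58 to −0.22) for DRB over DMSO and 0.34 (0.15 to 0.54) for DMSO over untreated. Relative to upstream, DRB and DMSO differed by −0.29 (−0.53 to −0.04) and DMSO and untreated by 0.21 (−0.07 to 0.48). Between DRB and untreated this contrast differed by −0.08 (−0.32 to 0.16).

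Fbxw11, which encodes an F-box protein of a ubiquitin ligase, was the gene body at which DRB stood apart from both libraries without it. From fbxw11, its 104 kb body held 14.7% in untreated cells, 14.4% with DMSO and 12.6% with DRB. The ratio was −0.19 (−0.32 to −0.06) for DRB over DMSO, −0.22 (−0.34 to −0.10) for DRB over untreated and −0.04 (−0.18 to 0.11) for DMSO over untreated. The interval upstream held 11.1%, 11.8% and 11.3%, and the body to upstream contrast was log2 0.41, 0.29 and 0.16. This contrast differed by −0.13 (−0.33 to 0.08) between DRB and DMSO and by −0.25 (−0.44 to −0.05) between DRB and untreated. The lower contact lay 30 to 100 kb to the right of the viewpoint, in the body, where the share was 6.99%, 6.92% and 5.07% and the ratio of DRB over DMSO −0.45 (−0.65 to −0.25). On the left, upstream side at the same distance it was 3.00%, 3.37% and 3.31%. The bins named for their difference lay here too, in introns of Fbxw11. A lower value with DRB than in both other libraries was a condition of their choice. They had 17, 20 and 20 reads at chr11:32612000-32613999 and 12, 17 and 15 reads at chr11:32586000-32587999.

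Slc25a37, which encodes the mitochondrial iron importer mitoferrin-1 needed for haem synthesis, showed no difference of its body beyond counting error. From Slc25A37, the 43.3 kb body held 17.4% in untreated cells, 16.5% with DMSO and 16.4% with DRB. The interval upstream held 24.3%, 25.0% and 24.0%. The body to upstream contrast was log2 −0.48, −0.60 and −0.55 and differed by 0.05 (−0.15 to 0.25) between DRB and DMSO.

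Neighbouring genes were mostly alike between DRB and DMSO. Erlec1, on the left of chac2, held 3.01%, 2.95% and 3.02% of its cis interactions in untreated, DMSO and DRB cells. Stk10, on the left of fbxw11, held 5.00%, 5.63% and 5.59%, and D930020E02Rik, on the right of Slc25A37, held 3.97%, 3.86% and 3.71%. Bod1, on the left of cpeb4, held 0.602%, 0.369% and 0.337%, so that untreated stood apart, with DMSO lower by −0.71 (−1.34 to −0.07). 4930524B15Rik, on the right of cpeb4, had at most 57 reads in a library, 1700008A04Rik at most 2, and the very short Gm17332 had 0 reads in each.

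At these viewpoints the share of 2 kb bins differing at least 2-fold between DRB and DMSO was below that between DMSO and untreated. It was 51.8% of 369 bins against 58.2% of 337 from Slc25A37, and 33.3% of 369 against 37.6% of 426 from chac2. From cpeb4 it was 27.1% of 280 against 39.7% of 297, and from fbxw11 54.2% of 415 against 56.9% of 504. Such high shares went with bins of few reads, since 113 of the 369 bins from Slc25A37 and 71 of the 415 from fbxw11 held 0 reads in one of the DRB and DMSO libraries. With DRB the lower bins outnumbered the higher ones at all 6 viewpoint sets, for example 171 to 54 from fbxw11 and 145 to 46 from Slc25A37. With a minimum mean of 100 this turned round from Hba1/2 (3 higher, 1 lower) and Slc25A37 (6 higher, 5 lower), and held at the other sets. Scaled to all reads, Hba1/2 had 9 each way, and the lower bins led at the other sets. Between DMSO and untreated the higher bins outnumbered the lower ones at all 6, for example 178 to 109 from fbxw11. From Hba1/2 this turned round with a minimum of 100 (1 higher, 4 lower) and when scaled to all reads (8 higher, 13 lower). At the minimum of 100 chac2 had 8 each way, and with 5 kb left out around viewpoints fbxw11 had 177 higher and 204 lower. With a minimum of 30, the margin of 1 kb and scaling to cis interactions, the deeper library of a pair thus had fewer bins above the other in both comparisons. The part of depth was not tested.

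By distance and scaled to cis interactions, DRB had a smaller share than DMSO within 100 kb and a larger share beyond 1000 kb at every viewpoint. Beyond 1000 kb the log2 ratio ran from 0.02 to 0.16, with 5 intervals clear of 0. There DMSO lay below untreated at 8 of 8 viewpoints, by −0.20 to −0.01, with 4 intervals clear of 0. Against untreated, DRB was higher at 5 and lower at 3, by −0.04 to 0.05, with 0 intervals clear. Within 100 kb, Hba1/2 made 59.4% of its cis interactions in untreated cells, 61.0% with DMSO and 57.7% with DRB, and Hbb1/2 made 48.6%, 51.9% and 47.3%. From chac2 the shares were 30.5%, 33.8% and 30.4%, from cpeb4 45.6%, 47.6% and 46.2%, from fbxw11 25.4%, 25.8% and 23.5%, and from Slc25A37 49.0%, 50.3% and 48.5%. DRB was lower than DMSO at 8 of 8 single viewpoints, by log2 −0.15 to −0.04, with 7 counting intervals clear of 0. This direction depends on scaling to cis interactions at cpeb4, where scaling to all reads turned −0.0446 into 0.0513, and it shrank to −0.00317 (−0.07 to 0.06) at Hba-2. At Slc25A37 the libraries were also nearly level on that scale, with 1458 of 4840 reads for DMSO and 3097 of 10329 for DRB. DMSO was higher than untreated at 8 of 8, by 0.02 to 0.15, with 4 intervals clear of 0, and DRB was lower than untreated at 7 of 8, with 3 intervals clear of 0. Part of the gap between DRB and DMSO was therefore also present between untreated and DMSO. The 8 viewpoints were captured from the same libraries and are not replicates of a condition.

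Between 300 kb and 10 Mb DRB had the largest share of the 3 libraries at all 6 viewpoint sets. In the band from 300 to 1000 kb, Hba1/2 made 5.78% of its cis interactions in untreated cells, 5.07% with DMSO and 6.16% with DRB, and Hbb1/2 made 2.76%, 2.88% and 3.62%. The DRB to DMSO ratio was 0.28 (0.10 to 0.46) and 0.33 (0.06 to 0.59). It was above 0 at 6 of 6 viewpoint sets, from 0.02 to 0.33, with 4 intervals clear of 0. For Hba1/2 the larger part lay to the left, the side of cpeb4, with 4.62%, 3.87% and 4.78%, and there DMSO was also below untreated by −0.26 (−0.48 to −0.03). The whole range from 300 kb to 10 Mb joins 2 of the distance bands and was not itself a planned band. Over it, DRB exceeded untreated at 6 of 6 sets, by 0.07 to 0.18, with all 6 intervals clear of 0. In the bands of 300 to 1000 kb and 1000 to 10000 kb, DRB exceeded untreated at 6 of 6 sets too, with 3 and 4 intervals clear. Over the whole range DRB exceeded DMSO at 6 of 6 sets as well, by 0.05 to 0.20, with 4 intervals clear of 0. Over the same range DMSO and untreated differed by −0.07 to 0.07, with 3 sets above and 3 below 0 and no interval clear of 0. In the 1000 to 10000 kb band alone they differed by −0.10 to 0.18, with 1 interval clear of 0 in each direction. From Slc25A37 the shares over the whole range were 22.6%, 23.7% and 24.6%, so that DMSO lay nearer to DRB than to untreated. Beyond 10 Mb, DMSO was the lowest library at all 6 sets, with DMSO over untreated at −0.21 to −0.05.

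**Figure D3:**
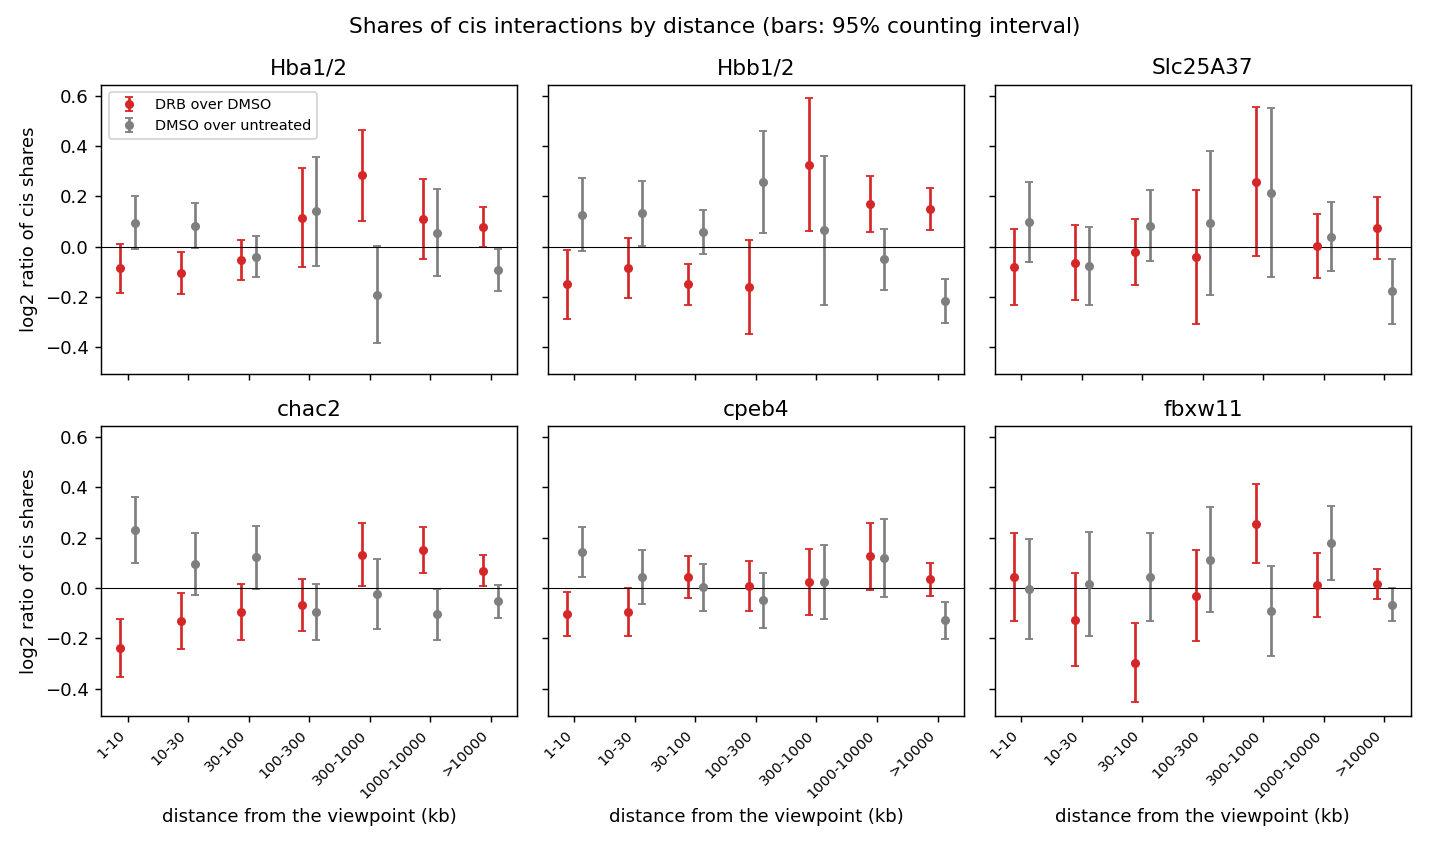
Log2 ratio of shares of cis interactions (y axis) by distance from the viewpoint in kb (x axis), 1 panel per viewpoint or pair, DRB over DMSO in red and DMSO over untreated in grey, with 95% counting intervals as bars. The red points lie above 0 in the 300 to 1000 kb band in all 6 panels (0.02 to 0.33), and in the 10 to 30 kb band they lie below 0 in all 6 (−0.13 to −0.06).

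Contacts among the 4 chromosome 11 regions of the panel (the α-globin domain, chac2, cpeb4 and fbxw11) more often set the DMSO library apart than the DRB library. From chac2, 1297 kb from Hba-1, the α-globin domain received 0.921% of cis interactions in untreated cells, 0.518% with DMSO and 0.989% with DRB (88, 39 and 161 reads). The ratio was 0.93 (0.43 to 1.44) for DRB over DMSO, −0.83 (−1.37 to −0.29) for DMSO over untreated and 0.10 (−0.27 to 0.48) for DRB over untreated. From Hba1/2, the cpeb4 locus (the viewpoint with 25 kb on each side) received 0.976%, 0.661% and 0.999%, with 0.60 (0.10 to 1.09) and −0.56 (−1.09 to −0.04). In both cases untreated and DRB were alike. From fbxw11 the domain received 1.05%, 0.847% and 1.34%, with 0.66 (0.14 to 1.19) for DRB over DMSO and 0.35 (−0.10 to 0.80) for DRB over untreated. The reverse direction from cpeb4 into the domain, 1.60%, 1.48% and 1.69%, did not differ beyond counting error. From Hba1/2 the chac2 locus received 0.328%, 0.334% and 0.273%, from 32, 21 and 40 reads. The low value with DMSO seen from chac2 was thus absent in this direction, where DRB over DMSO was −0.29 (−1.06 to 0.48). The contact from cpeb4 to the chac2 locus was instead highest with DMSO, at 0.432%, 0.649% and 0.407%. Read from chac2 to the cpeb4 locus, the same pair was lowest with DMSO, at 0.775%, 0.465% and 0.669%. There DMSO over untreated was −0.74 (−1.31 to −0.16), so the directions of this pair went opposite ways.

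The share of interchromosomal reads was lowest with DRB at 8 of 8 viewpoints. From Hba-1 it was 38.1% in untreated cells, 37.2% with DMSO and 35.6% with DRB, and from Hba-2 38.1%, 38.2% and 35.5%. From cpeb4, where the gap between DRB and DMSO was widest, it was 40.7%, 40.5% and 36.5%, and from Slc25A37 40.0%, 39.7% and 37.7%. DRB lay below DMSO by log2 −0.15 to −0.04, with 7 intervals clear of 0, and below untreated by −0.20 to −0.09, with 8 clear of 0. DMSO lay below untreated at 6 viewpoints and above at 2, by −0.12 to 0.01, with 2 intervals clear of 0, those of Hbb-b1 and Hbb-b2. Here untreated and DMSO lay closer to each other than to DRB at 6 viewpoints, and DRB was below both at all 8.

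**Figure D4:**
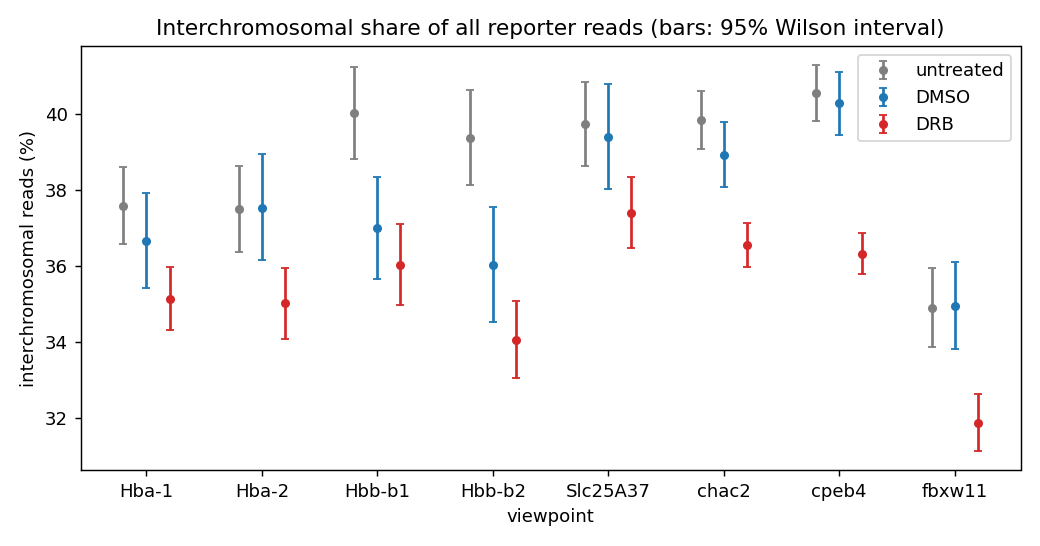
Interchromosomal reads as a percentage of all reporter reads of a viewpoint (y axis, which does not start at 0), for the 8 viewpoints (x axis) in untreated (grey), DMSO (blue) and DRB (red) cells, with 95% Wilson intervals as bars and no fragment left out, so values lie slightly below those in the text. DRB is the lowest of the 3 libraries at each of the 8 viewpoints.

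A few fragments on other chromosomes collected many reads from every viewpoint, and they differed between the libraries. There were 4 that held at least 0.1% of all reads of a library. One in an intron of Pacsin1 (chr17:27800489-27800750) had 654 reads in the untreated library, 19 with DMSO and 4 with DRB, or 0.857%, 0.0338% and 0.00335% of all reads, and in the untreated library it was met from all 8 viewpoints. The one in an intron of Cntnap5c (chr17:58185006-58185412) had 326, 301 and 442 reads. Both others were intergenic on chromosome 8, at chr8:119070502-119072177 between Dynlrb2 and Cdyl2 with 374, 384 and 497 reads, and at chr8:10960472-10960519 with 155, 140 and 190 reads. These 4 fragments were singled out after their values were seen. Without them the interchromosomal share with DRB was still lower than with DMSO at 8 of 8 viewpoints, by −0.14 to −0.04 with 6 intervals clear of 0, and lower than in untreated cells at 8 of 8, by −0.18 to −0.06.

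Contacts between the globin loci themselves were too few to compare. Within 250 kb of the β-globin interval, Hba1/2 had 6 reads in untreated cells, 0 of 3828 interchromosomal reads with DMSO, which allows up to 78.4 per 100000, and 11 with DRB. In the other direction, Hbb1/2 had 6, 0 and 4 reads within 250 kb of the α-globin domain. The DMSO library, the one at 0 in both directions, was also the shallowest. No difference was detectable at this depth.

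The spread between true replicates was taken from other experiments of the series, in MFL 30 h cells prepared by the standard protocol, with the viewpoints of those panels also left out. The domain share of Hba1/2 was 54.1% ± 1.21 (SD, n = 3) in the wild-type cells of the differentiation experiment, from 52.7% to 54.9%, and 54.6% ± 2.50 (SD, n = 3) in the wild-type cells of the enhancer deletion experiment, from 51.8% to 56.7%. Computed in the same way, untreated, DMSO and DRB cells gave 45.6%, 47.5% and 43.4%. The highest and lowest replicates differed by log2 0.06 in the first group and 0.13 in the second, and DRB and DMSO differed by −0.13, so the difference was about as large as the wider of these spreads and exceeded the narrower. For the contrast of domain to flanks, replicates spanned 0.23 and 0.17, and DRB and DMSO differed by −0.19. Deletion of both enhancers, for scale, gave a domain share of 35.7% ± 1.63 (SD, n = 3).

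Other measures compared in the same way. The β-globin interval share was 26.5% ± 0.66 and 29.7% ± 2.51 (SD, n = 3 each), with replicates spanning log2 0.07 and 0.24, around the size of the −0.16 between DRB and DMSO. Within 100 kb, Hba1/2 made 65.0% ± 0.76 and 66.7% ± 2.59 of its cis interactions, with replicates spanning 0.03 and 0.10 against −0.08 between DRB and DMSO. Contact with MCS-R2 was 699 ± 11.7 and 745 ± 19.7 per 100000, with replicates spanning 0.05 and 0.07, and here the low-input libraries gave 552, 699 and 406. The gap between DRB and DMSO, −0.78, exceeded both spreads, but so did the gap of 0.34 between DMSO and untreated, which involves no DRB. Those replicates held 9619 to 166084 reads over the viewpoints compared. The low-input values of MCS-R2 rest on 53, 44 and 58 reads, and their counting intervals were wider than these replicate spreads. As given above, they were −1.35 to −0.22 for DRB over DMSO and −0.23 to 0.92 for DMSO over untreated. Contact with MCS-R1 was 462 ± 55.5 and 577 ± 18.5 per 100000, with 635, 467 and 355 in the low-input libraries. The interchromosomal share from Hba1/2 was 46.2% ± 6.43 and 33.4% ± 5.89, with replicates spanning 0.37 and 0.51, far more than the −0.08 between DRB and DMSO. From 300 kb to 10 Mb, Hba1/2 made 12.0% ± 0.26 and 11.4% ± 0.40 of its cis interactions, with replicates spanning 0.05 and 0.10, against 12.5%, 12.0% and 13.6% in untreated, DMSO and DRB cells, where DRB and DMSO differed by 0.19. From Hbb1/2 in the same range replicates spanned 0.42 and 0.21, and DRB and DMSO differed by 0.20. Protocol and sequencing run differ between these groups and the low-input libraries, so their levels are given side by side without comparison, and the spread between low-input cultures treated alike is not known.

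**Figure D5:**
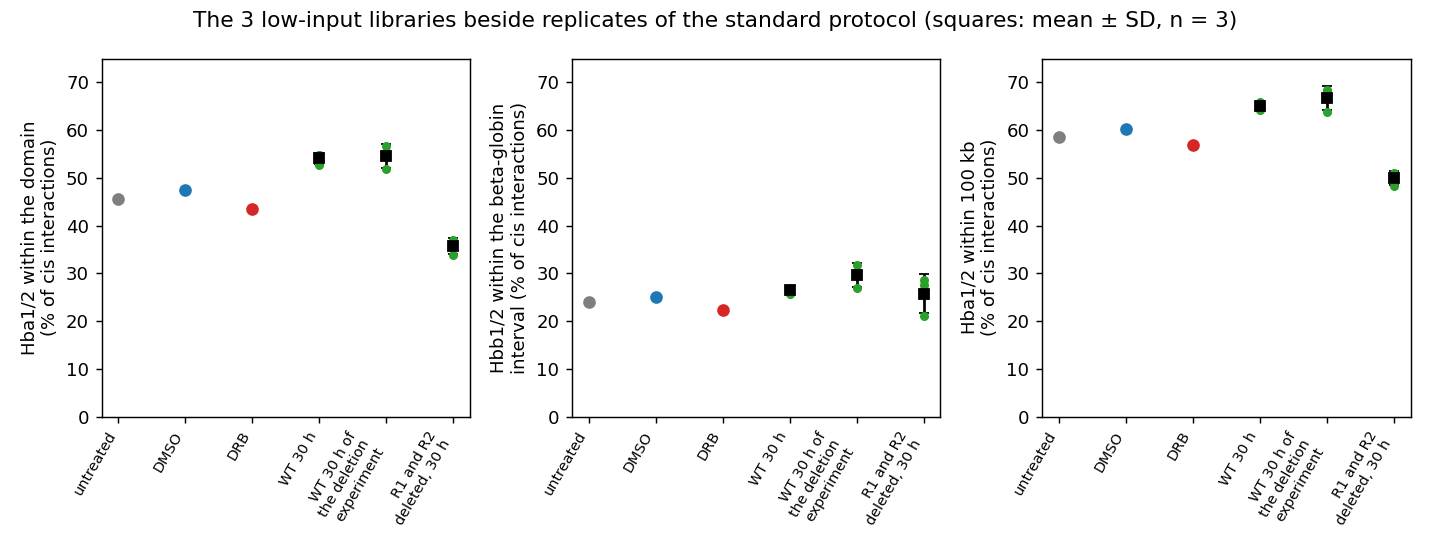
Domain share of Hba1/2, share of Hbb1/2 in the beta-globin interval and share of Hba1/2 within 100 kb (y axes, % of cis interactions) in the untreated, DMSO and DRB libraries and in replicated MFL 30 h groups of the standard protocol (x axis), where small points are replicates and squares with bars the mean ± SD of 3. The 3 low-input libraries span 43.4% to 47.5% in the domain, and protocol and sequencing run differ between them and the replicated groups.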

How the data were processed

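Chromatin interactions were measured by NG Capture-C with DpnII in MFL 30 h cells. Per the study's methods, the untreated, DMSO and DRB libraries were made with the low-input protocol and sequenced in paired-end mode on a MiSeq, and reads were assigned to mm9 restriction fragments with the authors' own scripts. The submitters' processing notes name Trim Galore and Bowtie, with versions not given in the sources used here. The values the authors deposited are closest in unit to RPM, but are reads per 100000 reporter reads of a viewpoint. All values were whole multiples of what 1 read is worth, within 1.5e-05 of a read, and the whole reads recovered from both viewpoints of a pair summed to those of the deposited combined column in all 3 libraries. Reads were scaled to the viewpoint's own chromosome, leaving out fragments within 1 kb of any viewpoint. Fragments were annotated from GENCODE vM1 on mm9, and sequences were read from that genome.

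Groups came from the sample labels. With 1 library per condition no count test was run. Shares carry Wilson intervals, and log2 ratios carry intervals by the delta method, at the 95% level. These steps were tested on simulated reads. Reads were summed in 2 kb bins. Those averaging 30 or more per 100000 over the compared libraries were set against each other after adding 1, and called different at 2-fold or more. Named sites were those of the labels and methods, the genes from Snrnp25 to Sh3pxd2b, the beta-like globin genes, the viewpoint genes and their nearest protein-coding neighbours. The 3 fragments over 5 kb away with the most reads per viewpoint were named too. So were up to 2 bins per viewpoint and direction with the largest difference between DRB and DMSO. These bins differed at least 2-fold, had an interval that excluded no change, and lay on the same side against untreated. Only some of the named sites are printed. One neighbouring gene and one site of the β-globin locus are not reported here. Members and lists were chosen with earlier results of these data known. Alternatives were a 5 kb margin, scaling to all reads or to 500 kb, single viewpoints, a 50 kb limit, 5 kb bins, a minimum of 100, adding 10, and leaving out replicates of the comparison groups. Other libraries of the series served only for the spread between replicates, averaging both runs of a replicate. Python 3.11.15, numpy 2.4.6, pandas 2.3.3, scipy 1.17.1 and matplotlib 3.10.9 were used.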

Additional observations from a re-analysis of the deposited data

How the results depend on the processing

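Log2 differences are given as in the report. The domain share of Hba1/2 stayed lower with DRB than with DMSO under every alternative, but by −0.0732 (in place of −0.13) when scaled to all reads, and by −0.0738 when scaled to the interactions within 500 kb. The β-globin share of Hbb1/2 differed by −0.29 with 5 kb left out around viewpoints and by −0.0331 (−0.11 to 0.04) within 500 kb, in place of −0.16, and DMSO then lay −0.0449 from untreated within 500 kb. With 5 kb left out, the body to upstream contrast of chac2 differed by −0.62 between DRB and DMSO and by 0.52 between DMSO and untreated, and that of cpeb4 by 0.49 between DMSO and untreated. Of all 2 kb bins, 776 of 1875 differed at least 2-fold between DRB and DMSO and 916 of 2016 between DMSO and untreated. A minimum mean of 100 left 63 of 583 and 85 of 586, and scaling to all reads, which puts fewer bins over the minimum, left 286 and 303. Within 100 kb of cpeb4 the direction turned from −0.0446 to 0.0513 when scaled to all reads. The remaining 58 recomputed values of the main comparisons stayed within the counting interval or within 1.5 times the count. Leaving out each replicate of the comparison groups moved none of 120 means by more than 1 SD. The 4 fragments with many interchromosomal reads were left out as an alternative chosen after seeing the data. No paired analysis was possible because each condition has 1 library, and the labels of these libraries give no replicate number. Depth limits single fragments most.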
